A study of Homo sapiens with 4 samples.

Results

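The genes described here are the enzymes of cholesterol and fatty acid synthesis and the proteins that control them, 32 genes chosen by symbol from the 15562 genes of the RNA-seq table. All 32 had a row and all 32 passed the filter on low counts, which 12725 genes passed. They comprise 18 sterol synthesis enzymes, 6 control and sterol transfer genes and 8 fatty acid synthesis enzymes. The catalysts of 7 steps use molecular oxygen as a substrate: SQLE, CYP51A1, MSMO1 and SC5D on the sterol side, and the desaturases SCD, FADS1 and FADS2 on the fatty acid side. The cells were H1975, an established human line from a lung adenocarcinoma, grown in RPMI medium with serum and labelled as wild type in each library. The hypoxia library came from cells held for 24 h in a gas mixture of 1% O2, 5% CO2 and 94% N2, and the normoxia library from cells cultured for 24 h in normoxia with 5% CO2. The RNA-seq library held 18943320 counts in hypoxia against 17643836 in normoxia, and there was 1 library in each group, so no difference was tested against the spread between cultures. Each ratio of hypoxia to normoxia is given with its exact 95% counting interval, which covers counting error only, after the counts were scaled by edgeR's trimmed mean method (TMM).

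Cholesterol is built from acetyl-CoA by way of mevalonate, farnesyl diphosphate, squalene and lanosterol, and the later part of the route consumes oxygen at several steps. The transcription factors made from SREBF1 and SREBF2 switch on most of these genes when membrane sterol is low. SCAP carries the factors out of the endoplasmic reticulum for cleavage, and the INSIG proteins hold SCAP back when sterol is plentiful. Serum lipoproteins are another source of cholesterol for cultured cells.

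Established targets of the hypoxia-inducible factors (HIF) were set beside these genes. Their list was chosen with earlier results of these data known, so it is not an independent check of the labels. Of 12 such genes, 11 (91.7%) were at least 25% higher in hypoxia with an interval excluding 1, where 3.36% of all genes were. The log2 ratios of the 12 ran from 0.26 (ADM) to 1.32 (NDRG1), with a median of 0.64. All 8 epithelial markers were expressed, at 9.11 to 1821 FPKM (the authors' level, scaled for gene length and library total), and 5 of them had intervals below 1, of which KRT7 was called lower at a ratio of 0.745. MUC1 had an interval above 1 (log2 ratio 0.14, 0.11 to 0.17), and the intervals of EPCAM and CDH1 held 1. Their summed FPKM was 5087 in hypoxia against 5559 in normoxia. Markers of other cell types were near 0 for endothelium (100 counts in hypoxia against 97 in normoxia over 4 genes, VWF and TIE1 at 0 in normoxia) and for leukocytes (PTPRC with 2 counts in hypoxia against 0 in normoxia, although CD14 had 315 in hypoxia against 402 in normoxia and both leukocyte genes past the filter were called lower). The 6 fibroblast genes summed to 2276 counts in hypoxia against 2042 in normoxia, of which COL1A1 held 1800 in hypoxia against 1579 in normoxia, with 1 of the 6 called higher and 1 lower. The part of these markers in the results below was not tested.

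Sterol and fatty acid synthesis transcripts were at almost the same level in the hypoxia and the normoxia library. A gene was called when its level was at least 25% higher in 1 library than in the other and its interval excluded 1. By that rule 0 of the 32 genes were higher in hypoxia, where 3.36% of all genes were, and 1 of 32, the sterol reductase gene TM7SF2, was lower, where 3.34% of all genes were. That call was lost when the trend of ratios with gene length was removed (ratio 0.815). In bulk RNA, fewer cells of a type and less RNA per cell cannot be told apart. At a 2-fold difference 0 of the 32 were called either way, beside 0.472% of all genes higher and 0.448% lower. The counting interval of all 32 genes lay inside a 1.5-fold difference and that of 28 lay inside the 25% limit. The intervals of INSIG2, MVD, MVK and TM7SF2 crossed that limit, so for these 4 genes counting error alone does not fix on which side of it they lie. The genes had 627 to 88381 counts summed over both libraries. Among the 8573 genes within that span of counts, 1.49% were called higher and 1.4% lower. The median log2 ratio of the 32 genes was -0.03, against 0.00050 for all genes. Of the 32, 13 (40.6%) lay above 0, where 50.1% of all genes did. Together they held 205255 counts in hypoxia (1.08% of the library) and 189939 in normoxia (1.08%).

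**Figure D1:**
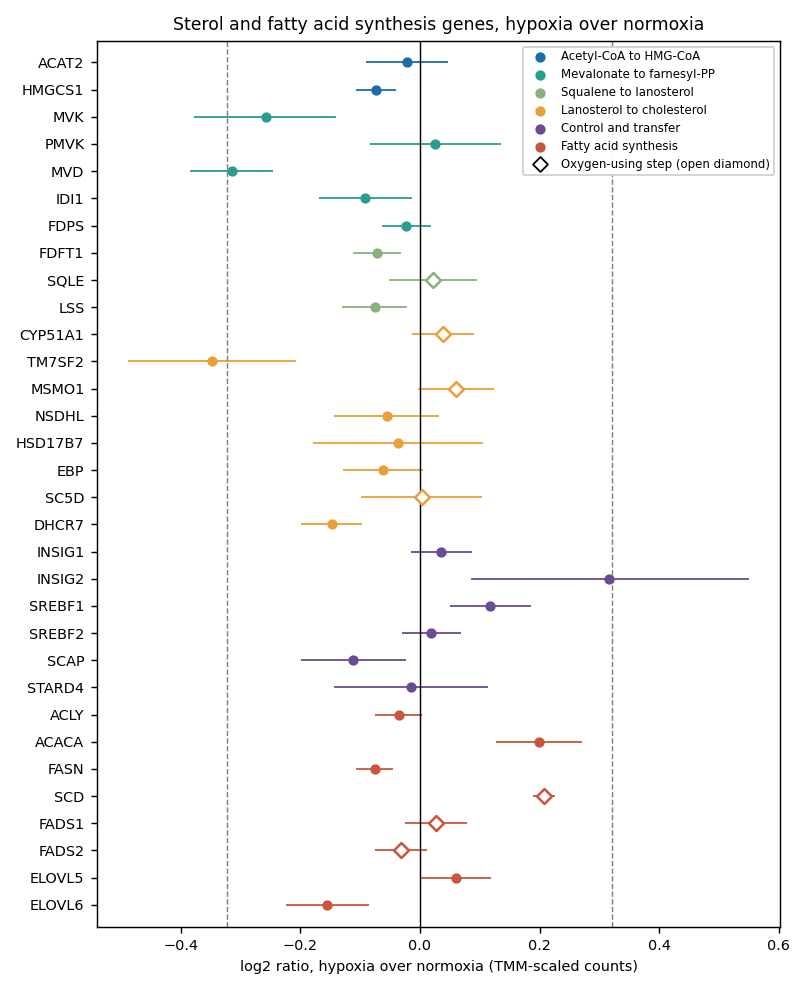
Log2 ratio of hypoxia over normoxia (horizontal axis) for each of the 32 genes, grouped by step of the pathway, with points for the TMM-scaled ratio and bars for the 95% counting interval. Dashed lines mark the 25% limit on either side. Only TM7SF2 lies past the lower line with its point, INSIG2 sits just inside the upper line, and the open diamonds of the oxygen-using steps lie at or close to 0 except SCD at 0.21.

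Intervals that excluded 1 lay below it in more of these genes than above it. The interval of 11 of the 32 genes, TM7SF2 among them, lay wholly below 1 (34.4%), where 14.4% of all genes did, and that of 5 lay wholly above 1 (15.6%), where 14.5% of all genes did. In the same span of counts, 17% of genes had an interval below 1 and 17.6% above. Of the 18 sterol enzymes, 8 had an interval below 1 and 0 had an interval above 1, with a median log2 ratio of -0.06 and values from -0.35 to 0.06. These 18 are short, with a median implied length of 2524 bases against 4007 for all genes. Genes of 1500 to 3000 bases had a median log2 ratio of -0.04. With the trend of ratios with gene length removed, those 8 intervals stayed below 1. That of MSMO1 then lay above 1 (0.04 to 0.16 on the log2 scale), and the log2 ratios of ACAT2, EBP, FDPS and HSD17B7 turned positive. How much of the lower values goes with length was not tested. The 8 fatty acid enzymes were split, with 3 intervals above 1 and 2 below, and a median of -0.0025. Of those 3, the interval of ELOVL5 cleared 1 only barely (lower limit 0.0004 on the log2 scale). Of the 6 control and transfer genes 2 intervals were above 1 and 1 was below, with a median of 0.03.

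Sequences around a transcript start of 4 genes are shown. INSIG2 and TM7SF2 mark the ends of the range of ratios, and SREBF2 holds the only sterol regulatory element found. MVK holds 5 CCAAT boxes (explained below), as many as NSDHL, which is not shown. The windows run from 250 bases before to 50 bases after a listed transcript start (RefSeq, GRCh38.p14, all on the plus strand). For INSIG2, TM7SF2 and SREBF2 that start is the first base of the annotated gene span, whereas for MVK it lies 522 bases inside the span. Capitals mark CCAAT (the box bound by NF-Y, a partner of the SREBF factors), TCACNCCAC (a sterol regulatory element) and ACGTG or GCGTG (the core that HIF recognises), each on either strand.
INSIG2 (chr2:118088221-118088520): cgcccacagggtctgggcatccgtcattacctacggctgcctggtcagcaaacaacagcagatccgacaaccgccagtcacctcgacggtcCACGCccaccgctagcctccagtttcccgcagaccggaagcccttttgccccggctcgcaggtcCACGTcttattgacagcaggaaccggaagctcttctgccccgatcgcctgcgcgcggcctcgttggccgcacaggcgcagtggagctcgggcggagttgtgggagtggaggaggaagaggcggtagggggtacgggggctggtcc
TM7SF2 (chr11:65111622-65111921): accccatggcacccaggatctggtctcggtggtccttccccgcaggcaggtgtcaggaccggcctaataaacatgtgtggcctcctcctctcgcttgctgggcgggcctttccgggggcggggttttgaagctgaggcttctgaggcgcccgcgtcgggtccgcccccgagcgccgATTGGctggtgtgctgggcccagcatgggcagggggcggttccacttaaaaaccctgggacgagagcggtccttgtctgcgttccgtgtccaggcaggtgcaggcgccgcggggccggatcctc
MVK (chr12:109573544-109573843): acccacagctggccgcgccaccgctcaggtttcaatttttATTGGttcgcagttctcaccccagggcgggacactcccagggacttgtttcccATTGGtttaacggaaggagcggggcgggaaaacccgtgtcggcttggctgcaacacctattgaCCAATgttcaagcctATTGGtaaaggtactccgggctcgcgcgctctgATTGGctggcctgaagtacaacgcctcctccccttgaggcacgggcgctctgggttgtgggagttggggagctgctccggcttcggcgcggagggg
SREBF2 (chr22:41832855-41833154): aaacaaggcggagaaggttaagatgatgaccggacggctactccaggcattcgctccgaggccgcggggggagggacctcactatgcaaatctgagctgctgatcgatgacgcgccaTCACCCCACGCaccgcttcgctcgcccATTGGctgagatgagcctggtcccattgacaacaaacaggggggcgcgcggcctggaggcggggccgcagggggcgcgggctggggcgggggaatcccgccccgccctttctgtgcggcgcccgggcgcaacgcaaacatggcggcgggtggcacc

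Distances below are from the start each window is built on. For 21 of the 28 genes with a window, that start was the upstream end of the annotated span. For 7 (ACLY, CYP51A1, DHCR7, ELOVL6, MVK, PMVK and SCAP) it lay inside the span. INSIG2 held the HIF core 2 times, starting 159 and 95 bases before the start, and no CCAAT box. Over the 28 windows the core matched 0 to 6 times (CACGTG counts as 2 matches), with the most in INSIG1 (log2 ratio 0.04). The 2 matches thus do not set INSIG2 apart. SREBF2 held the only sterol element found among the windows of these genes, TCACCCCAC, 133 bases before its start, followed by an inverted CCAAT box (ATTGG) 106 bases before it. The final GC of the capitals there belongs to a GCGTG match on the other strand that overlaps the element. MVK held 5 CCAAT boxes, of which 4 were inverted, and TM7SF2 held 1, inverted, 74 bases before its start. Of the 28 genes with a window (the first listed for each gene was used), 18 held a CCAAT box (64.3%), compared with 36.5% of 10279 genes past the filter that had a window and 35.7% of all 27305 genes with one. The HIF core was in 23 of the 28 (82.1%), compared with 63.0% of genes past the filter and 48.4% of all, and the sterol element in 1 of 28 (3.57%), compared with 1.13% and 1.15%. The E-box CACGTG, which contains the HIF core, was in 5 of the 28 (17.9%), compared with 10.0% and 7.43%. A match is a description of letters and not a bound site. Only these exact letters were searched, within windows of 300 bases, so a gene without a match is not shown to lack an element. ACAT2, FDFT1, SQLE and FASN were not among the windows matched.

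INSIG2, an endoplasmic reticulum anchor that retains SCAP and is described in mouse liver as a HIF-activated gene, had 358 counts in hypoxia against 269 in normoxia (5.72 FPKM in hypoxia, 4.61 in normoxia). Its ratio was 1.246 (1.06 to 1.46), with a log2 ratio of 0.32, which was the highest of the 32 and stayed just under the 25% limit. Among all genes past the filter 770 had a log2 ratio as high. INSIG1, its relative and itself a target of the SREBF factors, had 6646 counts in hypoxia against 6068 in normoxia (132 FPKM in hypoxia, 129.9 in normoxia), with a log2 ratio of 0.04 (-0.01 to 0.09). The log2 ratio of INSIG2 exceeded that of INSIG1 by 0.28 (0.05 to 0.51, Poisson errors of the 4 counts). The INSIG1 transcript was the far more abundant of the pair, and the ratio of INSIG2 to INSIG1 in FPKM was 0.0432 in hypoxia against 0.0355 in normoxia.

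SREBF1, whose main product in the liver drives fatty acid synthesis, had 3826 counts in hypoxia against 3300 in normoxia (39.7 FPKM in hypoxia, 36.8 in normoxia). The ratio was 1.09 (1.04 to 1.14). SREBF2, the chief activator of sterol synthesis, had 7047 counts in hypoxia against 6509 in normoxia (50.9 FPKM in hypoxia, 50.5 in normoxia), with a ratio of 1.01 (0.980 to 1.05). The SREBF1 log2 ratio was 0.10 above that of SREBF2 (0.02 to 0.18). The span of SREBF1 overlaps that of its opposite-strand neighbour RAI1 by 120 bases, and RAI1 had a log2 ratio of 0.15. The escort SCAP had 24.1 FPKM in hypoxia against 26.2 in normoxia, with a log2 ratio of -0.11 (-0.20 to -0.02). STARD4, a cytosolic sterol carrier, had 5.30 FPKM in hypoxia against 5.38 in normoxia, with a log2 ratio of -0.01 (-0.14 to 0.11). The introns of SREBF2 and SREBF1 hold the miR-33a and miR-33b genes, and 0 of the 141 miRNAs in the small RNA table were a strand of either.

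The first enzymes of the sterol route were slightly lower or level. ACAT2, which joins acetyl-CoA units, had 102 FPKM in hypoxia against 104 in normoxia, with a log2 ratio of -0.02 (-0.09 to 0.05). HMGCS1, the HMG-CoA synthase of the cytosol, had 14941 counts in hypoxia against 14719 in normoxia (123 FPKM in hypoxia, 129.6 in normoxia), with a log2 ratio of -0.07 (-0.11 to -0.04). The ACAT2 span overlaps that of TCP1 by 615 bases, and the sources used here do not say if counting was by strand, so the overlaps named here leave the values of such genes uncertain. TCP1 had a log2 ratio of 0.01.

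Within the mevalonate steps the kinase MVK and the decarboxylase MVD stood lowest. MVD, which makes isopentenyl diphosphate, had 3070 counts in hypoxia against 3575 in normoxia (77.4 FPKM in hypoxia, 96.8 in normoxia), with a ratio of 0.804 (0.766 to 0.844). MVD thus missed the 25% limit by little, and it passed when counts were scaled to the library totals. MVK, which phosphorylates mevalonate, had 1096 counts in hypoxia against 1227 in normoxia (21.2 FPKM in hypoxia, 25.5 in normoxia), with a ratio of 0.836 (0.770 to 0.908). The MVK span shares 233 bases with that of MMAB on the opposite strand, and MMAB had 1052 counts in hypoxia against 1050 in normoxia, with a log2 ratio of -0.09. PMVK, the kinase of the next step, had 57.7 FPKM in hypoxia against 57.0 in normoxia, and the log2 ratio of MVK was lower than that of PMVK, with a difference of -0.28 (-0.44 to -0.12) in a pair chosen after the values were seen. IDI1, the isomerase of isopentenyl diphosphate, had 24.1 FPKM in hypoxia against 25.8 in normoxia, with a log2 ratio of -0.09 (-0.17 to -0.01). The IDI1 span shares 320 bases with that of WDR37 on the opposite strand. WDR37 had 418 counts in hypoxia against 446 in normoxia, with a log2 ratio of -0.19. FDPS, which makes farnesyl diphosphate, was the second most abundant transcript of the 32, with 302 FPKM in hypoxia against 308 in normoxia and a log2 ratio of -0.02 (-0.06 to 0.02).

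At the entry to the sterol branch, the gene of the oxygen-using epoxidase was level between 2 neighbours that were slightly lower in hypoxia. FDFT1, squalene synthase, had 10083 counts in hypoxia against 9924 in normoxia (127 FPKM in hypoxia, 134 in normoxia), with a log2 ratio of -0.07 (-0.11 to -0.03). SQLE, the squalene epoxidase that takes up the first oxygen of the route, had 3147 counts in hypoxia against 2901 in normoxia (50.7 FPKM in hypoxia, 50.2 in normoxia), with a log2 ratio of 0.02 (-0.05 to 0.10). LSS, which closes the rings to give lanosterol, had 5486 counts in hypoxia against 5412 in normoxia (57.7 FPKM in hypoxia, 61.1 in normoxia), with a log2 ratio of -0.08 (-0.13 to -0.02). The log2 ratio of SQLE was 0.10 above that of LSS (0.0071 to 0.19).

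From lanosterol to cholesterol, TM7SF2 and DHCR7 had intervals below 1 and the other 6 genes had intervals that held 1. TM7SF2 (chromosome 11, 65111872 to 65116230, GRCh38.p14), a sterol reductase that acts just after the CYP51A1 step, had 765 counts in hypoxia against 911 in normoxia (25.6 FPKM in hypoxia, 32.7 in normoxia). Its ratio of 0.786 (0.713 to 0.866), with a log2 ratio of -0.35, was the lowest of the 32. DHCR7, the terminal reductase, had 6127 counts in hypoxia against 6353 in normoxia (117 FPKM in hypoxia, 130.4 in normoxia), with a ratio of 0.903 (0.871 to 0.935). CYP51A1, the lanosterol demethylase, which uses oxygen, had 6401 counts in hypoxia against 5834 in normoxia (103 FPKM in hypoxia, 100.4 in normoxia), with a log2 ratio of 0.04 (-0.01 to 0.09). The log2 ratio of CYP51A1 exceeded that of TM7SF2 by 0.39 (0.24 to 0.53), again a pair chosen after the values were seen. MSMO1, the oxygen-using methyl oxidase, had 4297 counts in hypoxia against 3857 in normoxia (97.9 FPKM in hypoxia, 94.3 in normoxia), with a log2 ratio of 0.06 (-0.0026 to 0.12). NSDHL, which works with MSMO1 in demethylation, had 63.2 FPKM in hypoxia against 66.0 in normoxia and a log2 ratio of -0.06 (-0.14 to 0.03), so that MSMO1 lay 0.12 above it (0.0084 to 0.22, a pair chosen after the values were seen). HSD17B7, the reductase that completes this step, had 24.98 FPKM in hypoxia against 25.75 in normoxia and a log2 ratio of -0.04 (-0.18 to 0.11). The isomerase EBP had 171 FPKM in hypoxia against 179 in normoxia, with a log2 ratio of -0.06 (-0.13 to 0.0054). SC5D, the oxygen-using desaturase of the sterol ring, had 12.3 FPKM in hypoxia against 12.4 in normoxia, with a log2 ratio of 0.0030 (-0.10 to 0.10).

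**Figure D2:**
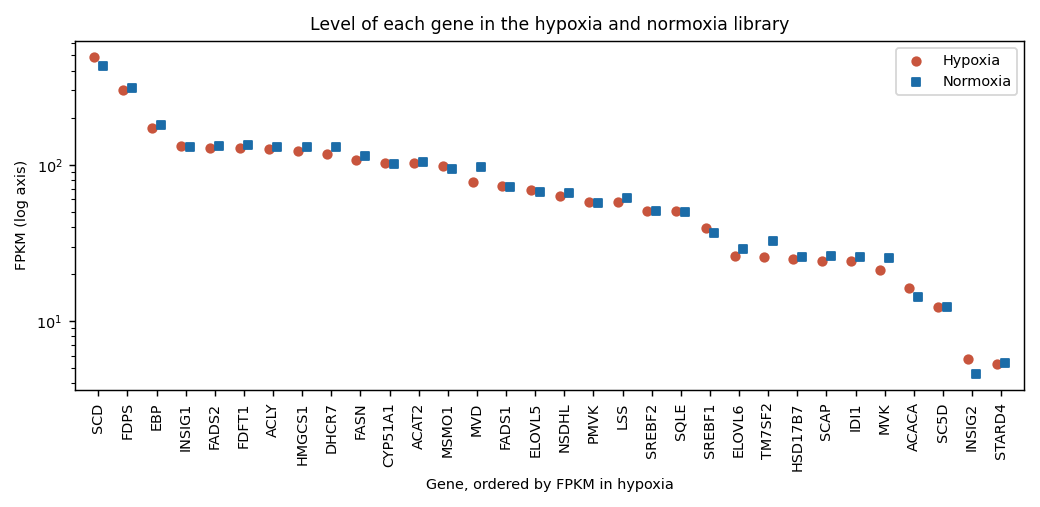
FPKM (log axis) of each of the 32 genes in the hypoxia library (circles) and the normoxia library (squares), ordered by the level in hypoxia. SCD stands highest at 491 FPKM in hypoxia and 428 in normoxia, STARD4 and INSIG2 stand lowest near 5 FPKM, and the paired points of most genes almost coincide.

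Fatty acid synthesis held the genes with the clearest higher values. SCD, the desaturase that inserts the first double bond into stearoyl-CoA, was the most abundant of the 32 and had 48812 counts in hypoxia against 39569 in normoxia (491 FPKM in hypoxia, 428 in normoxia). The ratio was 1.15 (1.14 to 1.17), with a log2 ratio of 0.21. SCD alone made up 23.8% of the counts of the 32 genes in hypoxia and 20.8% in normoxia, and 0.258% of the whole hypoxia library (exact Clopper-Pearson interval 0.255 to 0.260) against 0.224% of the normoxia library (0.222 to 0.226). Without SCD the other 31 genes summed to a log2 ratio of -0.04 (-0.05 to -0.03), whereas with it the sum was at 0.02 (0.0074 to 0.03). ACACA, the carboxylase that makes malonyl-CoA, had 3487 counts in hypoxia against 2844 in normoxia (16.4 FPKM in hypoxia, 14.3 in normoxia), with a ratio of 1.15 (1.09 to 1.21). ACACA and SCD were thus higher by similar amounts although their levels lie far apart.

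FASN, the synthase between those steps, did not share that direction. FASN had 17115 counts in hypoxia against 16879 in normoxia (107 FPKM in hypoxia, 113 in normoxia), with a ratio of 0.949 (0.929 to 0.970). The log2 ratio of SCD was 0.28 above that of FASN (0.25 to 0.32) and that of ACACA was 0.27 above (0.20 to 0.35), both pairs chosen after the values were seen. ACLY, which supplies cytosolic acetyl-CoA from citrate, had 126 FPKM in hypoxia against 129.7 in normoxia, with a log2 ratio of -0.04 (-0.08 to 0.0033). Among the elongases, ELOVL5, which extends polyunsaturated chains, had 4867 counts in hypoxia against 4371 in normoxia, with a log2 ratio of 0.06 (0.0004 to 0.12). ELOVL6, which extends saturated chains, had 3287 counts in hypoxia against 3426 in normoxia, with a log2 ratio of -0.16 (-0.22 to -0.09). The ELOVL5 log2 ratio was 0.21 above that of ELOVL6 (0.12 to 0.31). FADS1 and FADS2, the oxygen-using desaturases of polyunsaturated chains, had 72.9 and 128 FPKM in hypoxia and 71.9 and 132 in normoxia. Their log2 ratios of 0.03 (-0.03 to 0.08) and -0.03 (-0.08 to 0.01) differed by 0.06, with an interval that held 0 (-0.0090 to 0.13). The 2 genes lie head to head on chromosome 11 and their spans overlap by 801 bases.

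Set side by side, the 7 oxygen-using genes lay in a narrow band near or above 0. Of these 7, 6 were above 0 (85.7%, where 50.1% of all genes were). That count includes SC5D at 0.0030 (-0.10 to 0.10), which fell below 0 with library totals, with deposited FPKM and with the length trend removed. The interval of 1 of the 7 genes, SCD, lay above 1 (14.3%, where 14.5% of all genes did). In 0 of them it lay below 1, where 14.4% of all genes did, and the other 6 intervals held 1. The 7 genes had a median log2 ratio of 0.03 and a range of -0.03 to 0.21. Of the other 25 genes, 7 were above 0 (28%), 4 intervals lay above 1 (16%) and 11 below (44%). These 25 had a median of -0.06 and a range of -0.35 to 0.32. The ranges of the sets overlap, and the difference of their medians was 0.08 on the log2 scale. Summed over genes, the oxygen-using set had 79304 counts in hypoxia against 67813 in normoxia, with a log2 ratio of 0.13 (0.12 to 0.15), but without SCD, a split chosen after the values were seen, the remaining 6 genes summed to 0.02 (-0.0083 to 0.04). The other 25 genes summed to -0.05 (-0.06 to -0.04). With 1 library per group the difference between the sets was not tested.

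**Figure D3:**
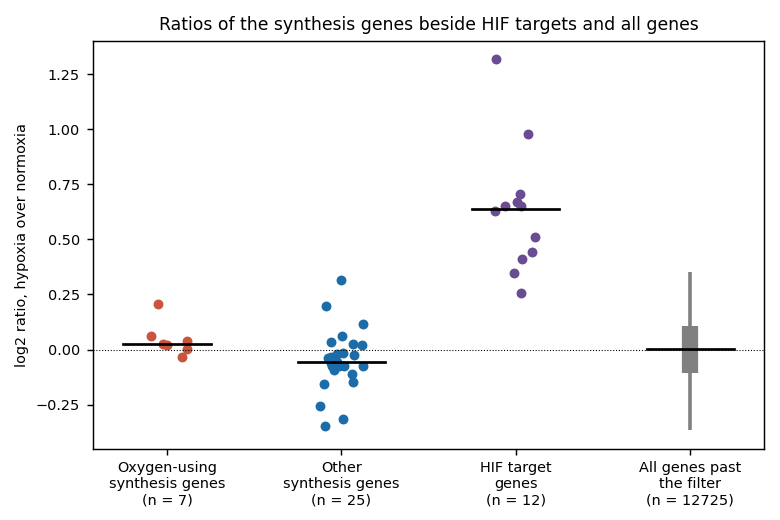
Log2 ratio of hypoxia over normoxia (vertical axis) for the oxygen-using synthesis genes, the other synthesis genes and 12 HIF target genes as points with a line at the median, and for all 12725 genes past the filter as a bar from the 25th to the 75th percentile (-0.10 to 0.11), a thin line from the 5th to the 95th (-0.37 to 0.35) and a median. Every HIF target lies above the median of both synthesis sets, and of the synthesis genes only INSIG2 exceeds the lowest HIF target.

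Ratios in these libraries also moved with gene length. Over all genes the median log2 ratio was -0.06 for genes under 1500 bases and 0.08 for genes over 12000 bases, with lengths implied by the counts and FPKM. The lowest of the synthesis genes are short (1578 bases for TM7SF2, 2094 for MVD and 2730 for MVK) and ACACA is long (11251 bases). After the trend of all genes on length was subtracted, the log2 ratio was -0.29 for TM7SF2 (-0.43 to -0.15), -0.27 for MVD (-0.34 to -0.20) and -0.23 for MVK (-0.35 to -0.11). The same step gave 0.32 for INSIG2 (0.09 to 0.56), 0.19 for SCD (0.17 to 0.21), 0.14 for ACACA (0.06 to 0.21) and -0.12 for FASN (-0.15 to -0.09). With the trend removed INSIG2 passed the 25% limit, at a ratio of 1.252, and TM7SF2 no longer did, at a ratio of 0.815. The median was 0.03 for the oxygen-using genes and -0.05 for the others. Across the 32 genes Pearson's r between log2 length and log2 ratio was 0.26 and Spearman's rho 0.13, as a description over genes of the same libraries.

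**Figure D4:**
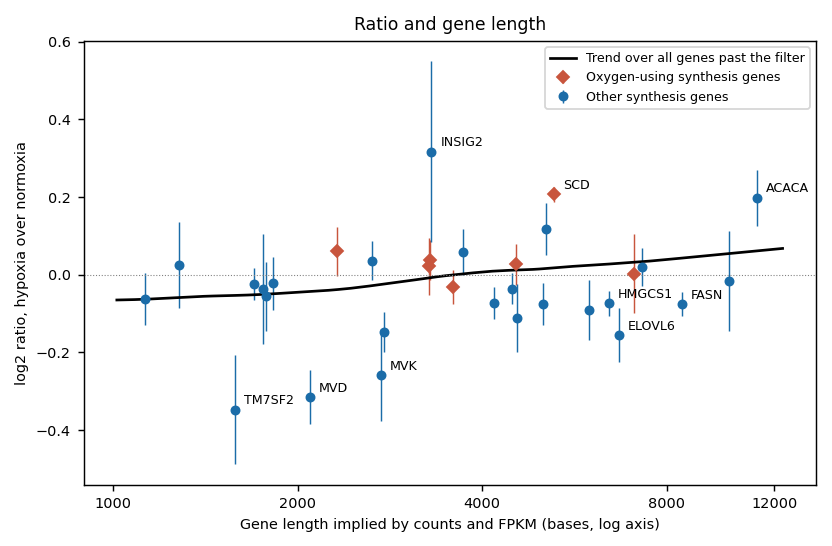
Log2 ratio of hypoxia over normoxia against gene length in bases (log axis) for the 7 oxygen-using genes (diamonds) and the other 25 (circles), with 95% counting intervals and the trend over all genes past the filter as a line. TM7SF2, MVD and MVK lie well below the trend, INSIG2, SCD and ACACA lie above it, and the trend itself lies between -0.06 and 0.06 at the lengths of the 32 genes.

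Genes around the core pathway were described from lists chosen with earlier results of these data known. Beside their counts stand the shares over all genes, of which 3.36% were called higher and 3.34% lower, and 14.5% had an interval above 1 and 14.4% below. Among 18 further fatty acid synthesis genes past the filter 0 were called either way, with a median log2 ratio of -0.0079 and values from -0.23 for the acetate-activating ACSS2 (-0.30 to -0.17) to 0.20 for the mitochondrial carboxylase ACACB (-0.09 to 0.49). Of those 18, 3 had an interval above 1 (16.7%) and 4 below (22.2%). Of 14 genes that process the SREBF factors or degrade sterol enzymes, 4 had an interval above 1 (28.6%) and 2 below (14.3%). SPRING1, which licenses the cleaving protease, was highest at 0.21 (0.05 to 0.37), and NPLOC4, a cofactor of the VCP segregase, was lowest at -0.20 (-0.28 to -0.12). Among 13 genes of the isoprenoid branch 1 was called higher (7.69%), PDSS1 of the ubiquinone side chain (203 counts in hypoxia against 146 in normoxia, log2 ratio 0.38, 0.07 to 0.70), and RABGGTA, a prenyltransferase subunit, was lowest at -0.26 (-0.44 to -0.08). Of the 13, 2 had an interval above 1 (15.4%) and 3 below (23.1%).

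Sterol uptake, storage and export genes mostly lay above 0. Of 15 past the filter, 8 had an interval above 1 (53.3%, where 14.5% of all genes did) and 1 below (6.67%, where 14.4% did), with a median log2 ratio of 0.11. Of the 15, 1 was called higher (6.67%, where 3.36% of all genes were). That gene was ABCA1, a cholesterol exporter, with 373 counts in hypoxia against 236 in normoxia and a log2 ratio of 0.56 (0.33 to 0.81). STARD5, a sterol carrier, was lowest at -0.63 (-1.39 to 0.12) from only 27 counts in hypoxia against 39 in normoxia. Fatty acid activation and oxidation genes had 0 of 21 called either way, a median of -0.04, and values from -0.30 for CPT1C (-0.59 to -0.02) to 0.13 for CPT2 (-0.02 to 0.27). Of the 21, 1 had an interval above 1 (4.76%, where 14.5% of all genes did) and 5 below (23.8%, where 14.4% did). The differences between these lists and the 32 synthesis genes were not tested.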

How the data were processed

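RNA-seq of H1975 cells gave 1 library in hypoxia and 1 in normoxia. Per the labels' protocols, RNA was extracted with TRIzol and libraries were made with a stranded mRNA kit. Bowtie, Cufflinks, HISAT2, HTSeq and Trimmomatic, with the build GRCh38, are listed in the submitters' processing notes without their roles. The authors deposited read counts per gene and FPKM, and the FPKM equalled the counts divided by the table total and by a gene length (implied lengths whole within 0.01 bases for 100% of genes). The deposited miRNA counts served only to look for miR-33a and miR-33b.

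Genes that reached a CPM of 1 in either library were kept, and counts were scaled with TMM in edgeR 4.0.16 (R 4.3.3). A single read was worth 0.0529 scaled CPM in hypoxia and 0.0565 in normoxia. Ratios and exact conditional (Clopper-Pearson) 95% intervals were computed in Python 3.11.15 with scipy 1.17.1, and the length trend with lowess in statsmodels 0.14.6 over a span of 0.3. Since the reads carry no molecular identifiers and may repeat a molecule, intervals cover counting error only and the true error is larger. Calls went by size: the higher library had to exceed the lower by 25%, with 1 outside the interval. No p-value was computed, because each group had 1 library. The procedure was run on simulated Poisson counts. These hold counting error only and no variation between cultures, so that run does not show how the intervals behave under such variation. The members, lists and limits were chosen with earlier results of these data known. All members are named, as are the highest and lowest of each further list. The alternatives were DESeq2 1.42.0 size factors, library totals, upper quartile scaling, deposited FPKM plus 1 or plus 0.1, a CPM of 5, genes left unfiltered, a limit of 1.5-fold and the length trend removed. Summed values without SCD and 5 of the pairs were added after the values were seen.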

Additional observations from a re-analysis of the deposited data

How the results depend on the processing

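Under the 8 alternatives that recompute ratios, all 32 log2 ratios stayed within their own counting intervals except with the length trend removed, where FDPS moved to 0.03 and FASN to -0.12. Genes close to 0 changed sign: SC5D was at -0.0041 with library totals and with FPKM plus 0.1 and at -0.0038 with FPKM plus 1, and with the length trend removed ACAT2, EBP, FDPS and HSD17B7 lay above 0 and SC5D and SREBF2 below. The medians of the 32 genes, the oxygen-using genes, the others and the HIF targets, and the differences of the 5 planned pairs, kept their sign under every alternative that was run. TM7SF2, the 1 gene called lower, was joined by MVD when counts were scaled to library totals, which gave 2. With the length trend removed 0 genes were called lower and 1, INSIG2, was called higher, and at a limit of 1.5-fold 0 were called lower. Genes with an interval above 1 numbered 4 to 6 and those below 1 numbered 11 to 13 in place of 5 and 11, and these counts could not be had from FPKM. Without SCD the summed log2 ratio of the oxygen-using genes was 0.02 in place of 0.13. No replicate could be left out, because each group has 1 library. Depth limits INSIG2 most, since its 358 and 269 counts in hypoxia and normoxia give the widest interval of the 32.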
